A study of Mus musculus with 6 samples.

Results

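The insulin-like growth factor (IGF) axis was followed through 10 genes in RNA-seq of FLK1+ mesodermal cells, namely the ligands Igf1 and Igf2, the receptors Igf1r, Insr and Igf2r, the receptor adaptor Grb10, the non-coding RNA H19, and the IGF2 mRNA-binding proteins Igf2bp1, Igf2bp2 and Igf2bp3. They were chosen by symbol from the 14005 genes of the deposited table, and all 10 were listed and tested. The choice was made with earlier results of the same libraries in view: Grb10 and Igf1 were known to lie among the lowest log2 fold changes, and Igf2 to differ between the Scl-/- libraries. For the 10 genes the difference between genotypes is therefore described, with its standard error and with no p-value.

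Embryoid bodies (EBs) were grown from mouse embryonic stem (ES) cells, and cells bearing FLK1, the VEGF receptor encoded by Kdr, were isolated on magnetic columns at day 3.5. The 6 libraries were 3 of wild-type (WT) and 3 of Scl-/- cells, numbered 1 to 3 in each group, from independent differentiations. Scl, also called Tal1, encodes the transcription factor on which blood formation depends, and both copies are disrupted in the Scl-/- line. The strain was given as C57Bl/6 X Sv129 for WT replicates 1 and 2 and Scl-/- replicate 1, and as Sv130, Sv131 and Sv132 in place of Sv129 for Scl-/- replicate 2, WT replicate 3 and Scl-/- replicate 3. The study's methods list 1 ES cell line of each genotype, so that the loss of SCL and any other difference between the lines cannot be told apart.

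IGF1 and IGF2 are secreted peptides that act mainly through the tyrosine kinase receptor IGF1R, while INSR is the receptor for insulin and, in a splice form, also binds IGF2. IGF2R lacks a kinase and carries IGF2 to lysosomes for degradation, and GRB10 is an adaptor that binds activated IGF1R and INSR and restrains growth. Igf2 is expressed from the paternal copy, and H19, Igf2r and, in most tissues, Grb10 are expressed from the maternal copy. Igf2 and H19 are neighbours that share enhancers, and IGF2 mRNA-binding proteins are RNA-binding proteins of embryonic cells.

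Reads on listed genes, worked out from the step that 1 read makes in each column, numbered 38623641 to 47621120 per library. A floor of 3 reads corresponded to 0.0615 to 0.0784 CPM (read counts scaled to a library size, here after the authors' edgeR normalization). Kdr was at 724 to 868 CPM in all 6 libraries. Tal1 was at 182 to 306 CPM in the WT and 5.68 to 9.35 CPM in the Scl-/- libraries. Of 6 haematopoietic and endothelial markers 5 were in the table, and their summed level was 251 to 480 CPM in WT and 12.6 to 35.4 CPM in Scl-/- cells, with Hbb-bh1 at 0 in each Scl-/- library. These are bulk samples, in which fewer cells of a type and less RNA per cell cannot be told apart, and the part of this marker difference in the values below was not tested. Over tested genes the median log2 fold change was 0.31 on chromosome 11 and -0.29 on chromosome 1, while medians of the others apart from Y lay between -0.016 and 0.031.

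The promoters of Grb10, Igf1 and Igf2r are shown first, because these are the members whose levels did not overlap between the genotypes. Each window holds 300 bases, 250 before and 50 after a RefSeq transcription start, taken from the RefSeq table and placed in mm9 by an exact match. Capitals mark E-boxes, written CANNTG, to which SCL binds with its partners. They also mark GATAA on either strand (TTATC where it lies on the other strand), a form of the site that GATA factors bind. The study writes that site as WGATAR, with A or T for W and A or G for R, so GATAG was neither marked nor counted. The marked TTATC of the second Grb10 window has no A or T at W. AGATAG stands unmarked in that window and in the Igf1 window. No E-box overlapped a GATAA in these windows.
Grb10 first start, mm9 chr11:11937374-11937673, minus strand: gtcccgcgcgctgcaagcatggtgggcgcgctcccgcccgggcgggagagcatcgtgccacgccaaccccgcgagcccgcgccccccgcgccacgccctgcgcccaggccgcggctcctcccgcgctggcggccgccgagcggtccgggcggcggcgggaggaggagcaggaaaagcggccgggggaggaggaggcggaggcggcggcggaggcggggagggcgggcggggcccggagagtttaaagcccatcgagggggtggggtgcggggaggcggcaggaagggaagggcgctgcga
Grb10 second start, mm9 chr11:11927925-11928224, minus strand: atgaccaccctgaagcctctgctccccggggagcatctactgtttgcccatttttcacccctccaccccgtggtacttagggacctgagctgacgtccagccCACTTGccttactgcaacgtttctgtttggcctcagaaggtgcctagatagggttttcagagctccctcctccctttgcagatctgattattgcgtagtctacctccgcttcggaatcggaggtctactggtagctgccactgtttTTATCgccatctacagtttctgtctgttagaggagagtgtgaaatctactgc
Igf1, mm9 chr10:87323606-87323905, plus strand: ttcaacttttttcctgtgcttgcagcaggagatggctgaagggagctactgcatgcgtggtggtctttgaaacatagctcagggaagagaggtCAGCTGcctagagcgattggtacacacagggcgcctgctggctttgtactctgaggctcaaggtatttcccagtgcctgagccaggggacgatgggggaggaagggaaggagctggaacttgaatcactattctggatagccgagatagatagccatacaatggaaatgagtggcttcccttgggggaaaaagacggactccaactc
Igf2r, mm9 chr17:12962523-12962822, minus strand: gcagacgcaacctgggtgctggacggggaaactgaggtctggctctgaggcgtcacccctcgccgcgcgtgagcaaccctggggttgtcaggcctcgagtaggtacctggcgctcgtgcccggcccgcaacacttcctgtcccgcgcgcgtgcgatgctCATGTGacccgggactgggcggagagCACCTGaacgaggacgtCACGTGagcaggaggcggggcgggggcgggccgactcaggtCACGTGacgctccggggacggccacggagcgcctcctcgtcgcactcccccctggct

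The first Grb10 window held 0 E-boxes and 0 GATAA, and 45 CpG dinucleotides. The second Grb10 window held 1 of each motif, the Igf1 window 1 E-box and the Igf2r window 4 E-boxes. Of all 32851 promoter windows of the table, 72.3% held an E-box and 25.4% held GATAA, so that these motifs are common in windows of this length. The study found SCL at the transcription start of only a minority of the loci it bound. SCL binding was not examined here. Windows were found for 7 of the 10 members, 11 windows in all, of which 6 held an E-box and 1 held GATAA. H19, Insr and Igf2bp1 had none.

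Grb10 and Igf1 were nearly lost in Scl-/- cells, Igf2r was lower there by a factor of 2.18, and H19 was lower in each same-numbered pair. Igf2 was low in 2 of the 3 Scl-/- libraries and within the WT range in the third. The receptors Igf1r and Insr and the 3 IGF2 mRNA-binding proteins had log2 fold changes between -0.17 and 0.18. Values are CPM, given in order of replicate number where 3 stand together, and log2 fold changes are Scl-/- against WT on log2(CPM + 0.5), on which changes of low genes come out too small.

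**Figure D1:**
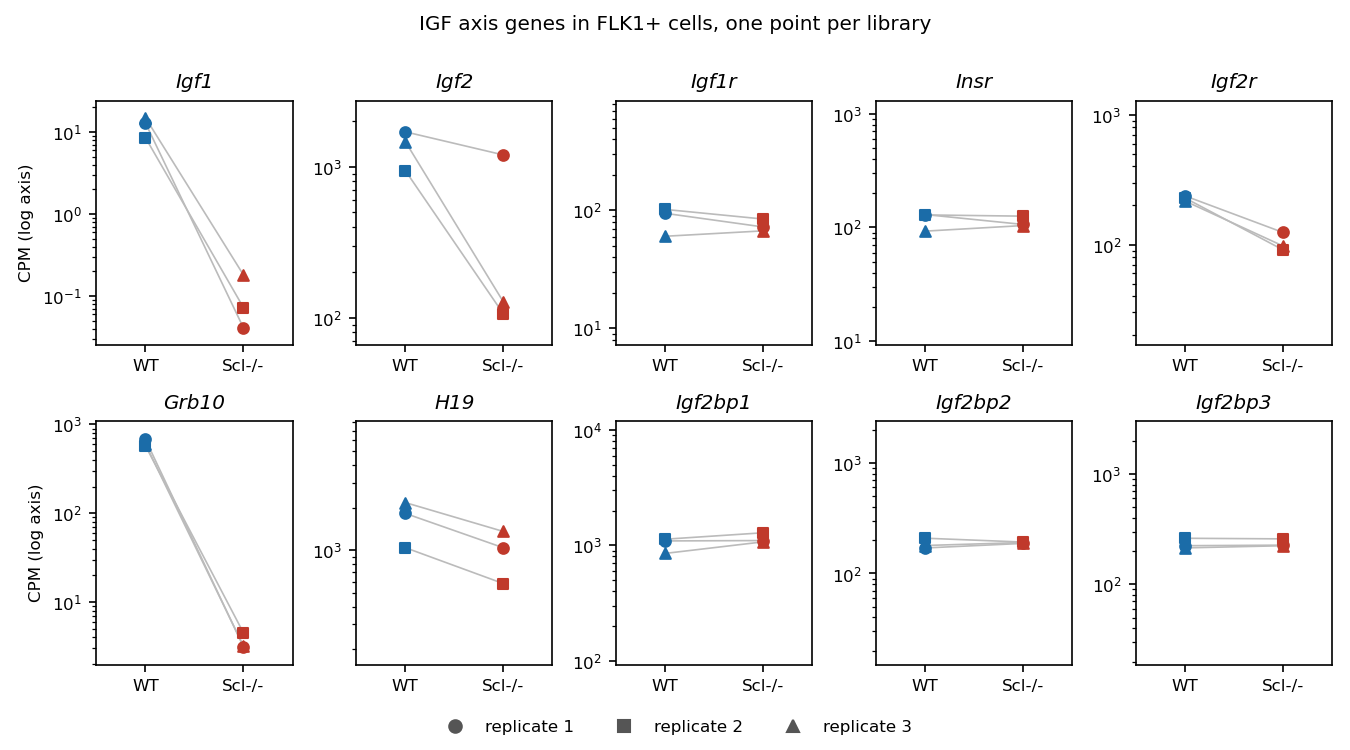
CPM of each IGF axis gene in every library on a log axis, WT in blue and Scl-/- in red, with lines joining libraries of the same replicate number. Grb10 fell from 576 or more to 4.50 CPM or less, the 3 Igf2bp genes lay level, and Igf2 split the Scl-/- libraries, with replicate 1 at 1196 CPM.

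Among all 13991 tested genes Grb10 had the lowest log2 fold change. Grb10 (Ensembl ENSMUSG00000020176) lies on chromosome 11 from 11830511 to 11938686 of mm9 on the minus strand. It had 679, 576 and 601 CPM in WT, against 3.14, 4.50 and 3.20 CPM in Scl-/- libraries. The groups were far apart, and each Scl-/- library kept between 0.462% and 0.78% of the level of its WT partner. WT cells averaged 619 ± 53.6 CPM (SD, n = 3), against 3.61 ± 0.768 CPM (SD, n = 3) for Scl-/-, a ratio of 171 and a log2 fold change of -7.25 (standard error 0.15). The residual signal rested on 141 to 186 reads per Scl-/- library and was thus above the floor of 3 reads in each.

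The fall of Grb10 stood against the direction of its chromosome. Of the 18 other tested genes within 5 Mb of its start, the median log2 fold change was 0.29, close to the median of 0.31 of chromosome 11, and 2 were called, Ikzf1, which was lower, and Egfr, which was higher, where 2.36% of all tested genes were. With the replicate number as a block 7 of the 18 were called, where 12.6% of all tested genes were, and Ikzf1 was the only one of them that was lower. Ddc, which encodes DOPA decarboxylase and belongs to the same imprinted domain, lies 32.5 kb away and had 4.56 CPM on average in WT and 4.83 CPM in Scl-/- cells, with overlapping groups. Cobl, on the other side at 198 kb, had 2.42 and 2.06 CPM.

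Of the 3 nearest tested genes on each side of Grb10, 1 of 6 was called at the thresholds used throughout, which were an adjusted p from limma (Benjamini-Hochberg over all tested genes) below 0.05 and a log2 fold change beyond 0.48 in either direction. It was Ikzf1, 158 kb away, which encodes the haematopoietic factor Ikaros and fell from 25.0, 12.0 and 23.5 CPM to 2.25, 1.79 and 4.47 CPM, with a log2 fold change of -2.64 (limma adjusted p = 0.0156). This call was lost without WT replicate 1, WT replicate 3 or Scl-/- replicate 2, where the log2 fold change was -2.46, -2.50 and -2.41. At the loci of Igf1, of Igf2 with H19, and of Igf2r, 0 of 18 such neighbours were called by limma, with or without the replicate block. Of all tested genes 2.36% were called without and 12.6% with it. Genes that overlap a member at these loci were not counted as neighbours and are described with that member. Without the block 2 of the 18 had an unadjusted limma p under 0.05. The share of all tested genes with such a p was not counted, so nothing is read from this number. Over all 24 neighbours the median log2 fold change was -0.022, against 0.0090 over all tested genes. Not all neighbours are close. Beyond Cobl the next tested genes lie 4462 and 4476 kb from Grb10, and those on the lower side of Igf1 lie 1020 to 1153 kb from it. Among the Igf2r neighbours a gene symbol stands under more than 1 identifier, at overlapping positions.

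**Figure D2:**
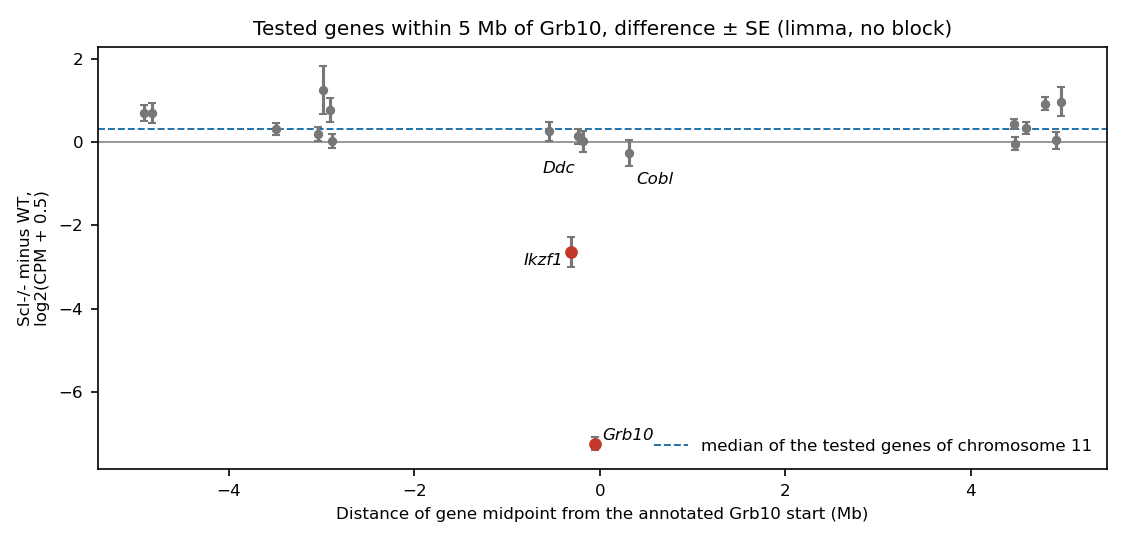
Log2 fold change with its standard error for each tested gene within 5 Mb of the annotated Grb10 start, plotted at the distance of its midpoint from that start; the dashed line is the median of chromosome 11. Grb10 at -7.25 and Ikzf1 at -2.64 lie below the other genes, and Ddc and Cobl lie near 0.

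Igf1, the ligand gene that is not imprinted, was a low gene in WT cells and close to the floor in Scl-/- cells. Igf1 (ENSMUSG00000020053) lies on chromosome 10 from 87321010 to 87399792 on the plus strand. It had 12.9, 8.57 and 14.98 CPM in WT, against 0.041, 0.0725 and 0.181 CPM in Scl-/- libraries. By the step of each column the Scl-/- values came from 2, 3 and 8 reads, so that replicates 1 and 2 were at or under the floor. The means were 12.2 ± 3.28 CPM (SD, n = 3) and 0.0983 ± 0.0737 CPM (SD, n = 3), and the log2 fold change was -4.38 (standard error 0.24). Pooled over libraries, 1461 WT and 13 Scl-/- reads gave a ratio of 126. With so few Scl-/- reads its size is uncertain, and it is a description of a gene chosen with this contrast in view.

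Igf2 split the Scl-/- libraries. Igf2 (ENSMUSG00000048583), on chromosome 7 from 149836673 to 149852721 on the minus strand, had 1701, 942 and 1466 CPM in WT, against 1196, 106 and 127 CPM in Scl-/- libraries. Scl-/- replicate 1 lay inside the WT range, and replicates 2 and 3 lay below every WT library. Within the Scl-/- group the library of replicate 1 held 11.3 times the level of replicate 2 and 9.40 times that of replicate 3, whereas the highest WT library was 1.81 times the lowest. The range of 3.49 over the Scl-/- libraries on the log2 scale ranked 12 from the widest among the 13991 tested genes, where the median gene had a range of 0.36.

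A mean over the Scl-/- libraries therefore describes none of them. It was 476 ± 623 CPM (SD, n = 3), against 1369 ± 388 CPM (SD, n = 3) in WT, and the log2 fold change was -2.39, with a standard error of 0.85, or 0.48 with the replicate block. Without Scl-/- replicate 1 the log2 fold change was -3.51, and without replicate 2 or replicate 3 it was -1.77 and -1.90. The Scl-/- library kept 70.3%, 11.3% and 8.68% of the Igf2 level of its WT partner in pairs 1, 2 and 3.

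Igf2os, an antisense RNA gene that overlaps Igf2 on the opposite strand, went the same way, with 71.7, 41.8 and 56.6 CPM in WT, against 59.3, 6.67 and 5.78 CPM in Scl-/- libraries. Its log2 fold change was -2.01, and it was called with the replicate block only, where 12.6% of all tested genes were. The sources used here do not say whether the counting used strand, and without strand the reads of Igf2 and Igf2os cannot be told apart.

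Marker sums of other lineages differed between the Scl-/- libraries in several ways. Replicate 1 had the lowest Scl-/- sum for the ES cell, mesoderm and neural markers but not for the others. Summed over the 6 undifferentiated ES cell markers, the Scl-/- libraries had 119, 283 and 236 CPM in replicates 1 to 3 and the WT libraries 128 to 205 CPM. Not every marker followed its sum, since Klf4 was lowest in Scl-/- replicate 3 and Esrrb in Scl-/- replicate 2. The 6 FLK1+ mesoderm markers summed to 1975, 2241 and 2379 CPM in the Scl-/- libraries and to 1746 to 1922 CPM in WT. Hand1 went against this sum, with 444, 217 and 292 CPM in Scl-/- replicates 1 to 3. Its log2 fold change was -0.45 and that of Kdr -0.15, while T, Mesp1, Pdgfra and Mixl1 were higher in Scl-/- cells. Of the neural ectoderm markers 2 of 6 were in the table and summed to 20.0, 61.6 and 41.2 CPM in Scl-/- replicates 1 to 3 and to 17.7 to 42.3 CPM in WT. Of the endoderm markers 2 of 6 were in the table, Sox17 and Cer1. They summed to 3.32, 3.12 and 8.44 CPM in Scl-/- replicates 1 to 3 and to 8.34 to 22.4 CPM in WT. Their log2 fold changes went opposite ways, at -2.10 for Sox17 and 0.85 for Cer1. Sox17 made up most of the WT sum, and the study places it among the endothelial genes that SCL activates, so the sum is no measure of endoderm. The haematopoietic and endothelial markers summed to 27.6, 12.6 and 35.4 CPM in the Scl-/- libraries, with replicate 1 in the middle. The part of these markers in the split of Igf2 was not tested.

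H19 showed no such split. H19 (ENSMUSG00000000031), on chromosome 7 from 149761434 to 149764048 on the minus strand, had 1821, 1043 and 2171 CPM in WT, against 1042, 582 and 1357 CPM in Scl-/- libraries. The groups overlapped, since replicate 2 was the lowest of both, but each Scl-/- library held between 55.8% and 62.5% of its WT partner. The log2 fold change was -0.77, with a standard error of 0.36 without and 0.066 with the replicate block. Without Scl-/- replicate 2 the value was -0.43, and over all fits that left out 1 library it ran from -1.09 to -0.43. Those fits had no block and kept the partner of the library left out. Within pairs 1, 2 and 3 the log2 differences were -0.81, -0.84 and -0.68. The library with the most Igf2 among the Scl-/- cells, replicate 1, was in the middle for H19.

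The ratio of Igf2 to H19, in CPM, was 0.934, 0.903 and 0.675 in WT replicates 1 to 3 and 1.15, 0.182 and 0.0937 in Scl-/- replicates 1 to 3. Scl-/- replicate 1 thus had the highest ratio of the 6 libraries and replicates 2 and 3 the lowest.

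**Figure D3:**
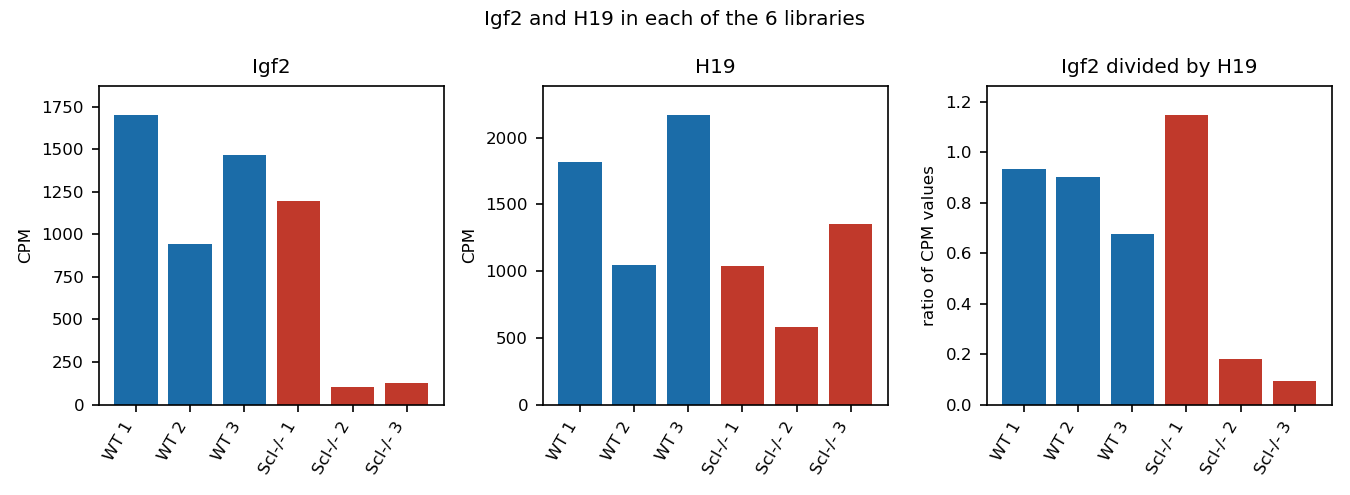
Igf2 and H19 in CPM and the ratio of Igf2 to H19 in each library, WT in blue and Scl-/- in red, with bars starting at 0. Igf2 was at 1196 CPM in Scl-/- replicate 1 and at 106 and 127 CPM in replicates 2 and 3, whereas H19 was lower in every Scl-/- library than in the WT library of the same number.

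H19 RNA is also the precursor of the microRNA miR-675, whose gene lies inside H19 and has a row of its own in the table. Its mature arms are given with the seed, bases 2 to 8, in capitals, because the table counts reads on this stretch of H19.
mmu-miR-675-5p: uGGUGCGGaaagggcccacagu
mmu-miR-675-3p: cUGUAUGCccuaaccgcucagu
Mir675 had 112, 62.7 and 137 CPM in WT, against 67.8, 36.2 and 85.1 CPM in Scl-/- libraries, which follows H19 library by library. Its log2 fold change was -0.73, and like H19 it was called with the replicate block only, where 12.6% of all tested genes were. Reads of the H19 transcript that cover this stretch cannot be told apart from those of the microRNA precursor, so this is no measure of the mature microRNA.

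Of the receptors, only Igf2r had groups that did not overlap. Igf2r (ENSMUSG00000023830), on chromosome 17 from 12875272 to 12962530 on the minus strand, had 237, 229 and 217 CPM in WT, against 124, 91.1 and 97.5 CPM in Scl-/- libraries. The spread was narrow in both groups, with means of 227 ± 10.4 CPM (SD, n = 3) and 104 ± 17.4 CPM (SD, n = 3) and a log2 fold change of -1.13 (standard error 0.13). Leaving out each library in turn kept it between -1.27 and -1.04. Airn, the antisense RNA that silences Igf2r on the paternal copy and overlaps it, had 51.3, 33.2 and 10.4 CPM in WT, against 40.0, 20.1 and 13.6 CPM in Scl-/- libraries. The groups of Airn overlapped, and its log2 fold change was -0.23 (limma adjusted p = 0.921, and 0.393 when blocked on replicate number).

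The signalling receptors overlapped between the genotypes. Igf1r (ENSMUSG00000005533), on chromosome 7 from 75097713 to 75371484, had 94.4, 102 and 60.3 CPM in WT, against 72.3, 84.4 and 67.0 CPM in Scl-/- libraries, and its log2 fold change was -0.17 ± 0.20 (standard error). Insr (ENSMUSG00000005534), on chromosome 8 from 3150922 to 3279617, had 130, 129 and 92.7 CPM in WT, against 106, 126 and 104 CPM in Scl-/- libraries, and its log2 fold change was -0.054 ± 0.15 (standard error). Both were lower in the Scl-/- library of pairs 1 and 2 and higher in that of pair 3, and WT replicate 3 was the lowest library for both.

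The mRNA-binding proteins lay level. Igf2bp1 (ENSMUSG00000013415), on chromosome 11 from 95818477 to 95867254, was the highest, with 1090, 1128 and 850 CPM in WT, against 1099, 1284 and 1071 CPM in Scl-/- libraries. Its log2 fold change of 0.18 (standard error 0.14) was below the chromosome 11 median of 0.31, and it became -0.13 once the median deviation of each chromosome was removed from each library. Igf2bp2 (ENSMUSG00000033581), on chromosome 16 from 22059082 to 22163372, had 170, 208 and 179 CPM in WT, against 187, 192 and 190 CPM in Scl-/- libraries. Igf2bp3 (ENSMUSG00000029814), on chromosome 6 from 49035220 to 49164953, had 224, 261 and 214 CPM in WT, against 226, 258 and 223 CPM in Scl-/- libraries. In both, the Scl-/- values lay within the WT range, and their log2 fold changes were 0.036 (standard error 0.10) and 0.021 (standard error 0.11).

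**Figure D4:**
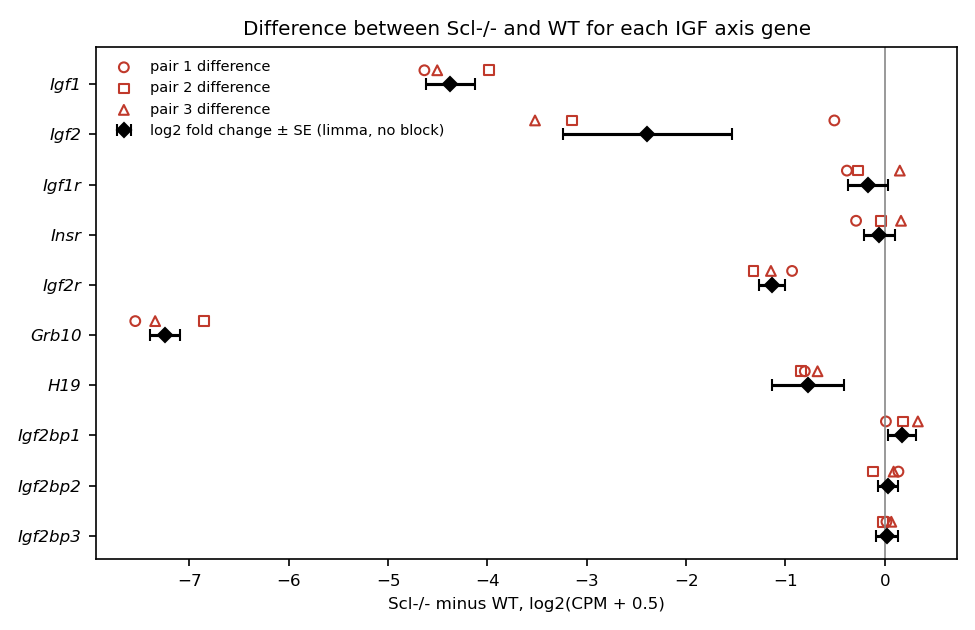
Log2 fold change of each IGF axis gene with its standard error (black), and the difference within each same-numbered pair (red). The 3 pairs lay close together for H19 and Igf2r, while pair 1 of Igf2, at -0.51, lay apart from pairs 2 and 3, at -3.15 and -3.52.

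Counted at the thresholds above, 3 of the 10 members were called, namely Grb10, Igf1 and Igf2r, all lower, where 2.36% of all tested genes were called, 1.57% lower and 0.793% higher. With the replicate number as a block 5 were called, with Igf2 and H19 added and again all lower, where the share was 12.6% of all tested genes, 6.6% lower and 6.04% higher. The groups did not overlap for 3 members, against 21.6% of all tested genes. Since the members were proposed with this contrast in view, nothing is read from these counts. Igf2r was not called without WT replicate 1, where its log2 fold change was -1.10, and Igf2 was called without Scl-/- replicate 1, where it was -3.51.

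Per kilobase of annotated exon, the WT cells held more H19 than any other member, 708 ± 243 CPM per kb (SD, n = 3). The next in order were Igf2 with 249 ± 70.7, Igf2bp1 with 106 ± 15.6, Grb10 with 67.5 ± 5.85 and Igf2bp3 with 53.6 ± 5.75 CPM per kb (SD, n = 3). Igf2bp2, Igf2r and Igf1r had means of 26.1, 24.1 and 19.1 CPM per kb, and the libraries of Igf2bp2 and Igf2r overlapped. Insr followed with 12.1 and Igf1 with 1.23 CPM per kb. In Scl-/- cells Grb10 was at 0.394 CPM per kb, below every member but Igf1, at 0.0099, and Igf2r at 11.04 lay level with Insr at 11.6. Exon lengths are the union over all annotated transcripts, so a gene that uses a short isoform is understated.

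Over the 6 libraries, the gene whose log2 levels were most like those of Grb10, out of 11715 genes that averaged 5 CPM or more, was Irs2 (Pearson's r = 0.999), followed by ENSMUSG00000085270, Scube2, Arhgap18 and Ikzf2. For Igf1 they were Gpr161, Myb, Palm3, Cbfa2t3 and Scube2, with r of 0.995 to 0.996. The groups of Grb10 and of Igf1 do not overlap, so that the difference between groups carries most of these values. For Igf2 they were Foxo4 (r = 0.997), Twf1, Igf2os, Cgnl1 and Gm15605, which share the high Scl-/- replicate 1. Cgnl1, a cell junction gene, had 192, 143 and 160 CPM in WT, against 140, 47.4 and 57.6 CPM in Scl-/- libraries. For H19 they included Mir675, Stk25, A230056P14Rik and Sema3f, which share a low replicate 2 in both groups. The libraries share their sort and culture, and no test was made.

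Of 52 other genes of the pathway, listed by role, 44 were in the table and tested, and Irs2 and Ide were called, both lower. That is 2 called of 44, where 2.36% of all tested genes were called. Their log2 fold changes had a median of -0.027, against 0.0090 over all tested genes, and 35 of the 44 lay within the threshold of 0.48 on either side. With the replicate block 8 were called, 7 lower and 1 higher, where 12.6% of all tested genes were.

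Irs2, an adaptor that couples IGF1R and INSR to PI3K, fell more than Ide, the other gene of the list called without the block. It had 170, 167 and 161 CPM in WT, against 52.4, 59.2 and 55.8 CPM in Scl-/- libraries. The groups were tight and apart, and the log2 fold change came to -1.56 (standard error 0.090, limma adjusted p = 6.7e-04). It was called under each alternative that was run, with log2 fold changes of -1.61 to -1.52 when 1 library was left out. ENSMUSG00000085270, on chromosome 8 like Irs2, was at 29.7 to 33.1 CPM in WT and at 9.41 to 10.8 CPM in Scl-/- cells. Whether its reads are separate from those of Irs2 was not tested, and the use of strand in the counting is not given. Irs1, the related adaptor, had 49.2, 57.9 and 43.1 CPM in WT, against 54.0, 42.7 and 52.6 CPM in Scl-/- libraries, and its log2 fold change was -0.0064 ± 0.15 (standard error). The other 7 adaptors tested were not called, with Grb2 at 0.24 as the highest.

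Ide encodes the insulin-degrading enzyme. It had 149, 133 and 148 CPM in WT, against 87.7, 97.5 and 105 CPM in Scl-/- libraries, and the log2 fold change came to -0.57 (standard error 0.10, limma adjusted p = 0.0388). This call was lost when any 1 of the 6 libraries was left out, where the log2 fold change ran from -0.63 to -0.50.

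Of the IGF-binding proteins, which hold IGFs outside cells, 5 of 7 were tested. By limma 0 were called without the block, where 2.36% of all tested genes were. With it 2, Igfbp3 and Igfbp5, were called, where 12.6% of all tested genes were. Igfbp4 was the most abundant in CPM, with 369, 351 and 460 CPM in WT, against 437, 435 and 596 CPM in Scl-/- libraries. Igfbp5 had 8.96, 4.31 and 7.65 CPM in WT, against 3.40, 0.943 and 1.66 CPM in Scl-/- libraries, with a log2 fold change of -1.64 (limma adjusted p = 0.0933, and 5.3e-04 when blocked on replicate number). Igfbp3 had 5.32, 7.42 and 6.05 CPM in WT, against 7.46, 11.5 and 13.3 CPM in Scl-/- libraries, with a log2 fold change of 0.71 (limma adjusted p = 0.184, and 0.0113 when blocked on replicate number). Igfbp3 lies on chromosome 11, and with each chromosome centred and the block it was not called. Igfbp2 and Igfbp7 had log2 fold changes of -0.24 (standard error 0.24) and -0.031 (standard error 0.28), and Igfbp1 and Igfbp6 were not in the table.

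Among 13 genes of the PI3K, AKT and FOXO group limma called 0 without the block, where 2.36% of all tested genes were called. With the block it called 3, all lower, where 12.6% of all tested genes were called, 6.6% lower. Without the block 3 of the 13 had a limma p under 0.05 before adjustment. Foxo1, a transcription factor held out of the nucleus by AKT, had 17.7, 15.2 and 17.9 CPM in WT, against 7.97, 9.72 and 12.2 CPM in Scl-/- libraries (limma adjusted p = 0.087, and 0.00607 when blocked on replicate number). Its relative Foxo4 had 218, 191 and 215 CPM in WT, against 199, 117 and 128 CPM in Scl-/- libraries, so that Scl-/- replicate 1 lay inside the WT range, as it did for Igf2 (limma adjusted p = 0.22, and 0.0141 when blocked on replicate number). The 8 genes of the mTOR group had log2 fold changes between -0.32 and 0.36. Limma called 0 of them with or without the block, beside the same shares of all tested genes. Without and with the block, 3 and 5 of the 8 had an unadjusted limma p under 0.05. The share of all tested genes with such a p was not counted, so nothing is read from these numbers in either group.

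Of 5 relatives and partners of GRB10, limma called 0 without the block, where 2.36% of all tested genes were called. With the block it called 1, Gigyf2, where 12.6% of all tested genes were called. Without the block 1 had a limma p under 0.05 before adjustment, and nothing is read from this number. Grb7 and Grb14, which encode adaptors of the same family, were at 4.02 to 6.56 and 6.05 to 8.31 CPM in WT and at 4.21 to 13.3 and 4.88 to 8.03 CPM in Scl-/- cells. Nedd4, the ubiquitin ligase that binds GRB10, averaged 1370 ± 60.1 CPM (SD, n = 3) in WT, against 1286 ± 59.9 CPM (SD, n = 3) after loss of SCL, a log2 difference of -0.091 (limma adjusted p = 0.723). Of the GRB10-interacting GYF proteins, Gigyf1 had a log2 fold change of 0.047 (limma adjusted p = 0.939). Gigyf2, on chromosome 1, had 237, 226 and 193 CPM in WT, against 156, 147 and 163 CPM in Scl-/- libraries (limma adjusted p = 0.0676, and 0.00537 when blocked on replicate number). Gigyf2 was not called with the block once each chromosome was centred.

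**Figure D5:**
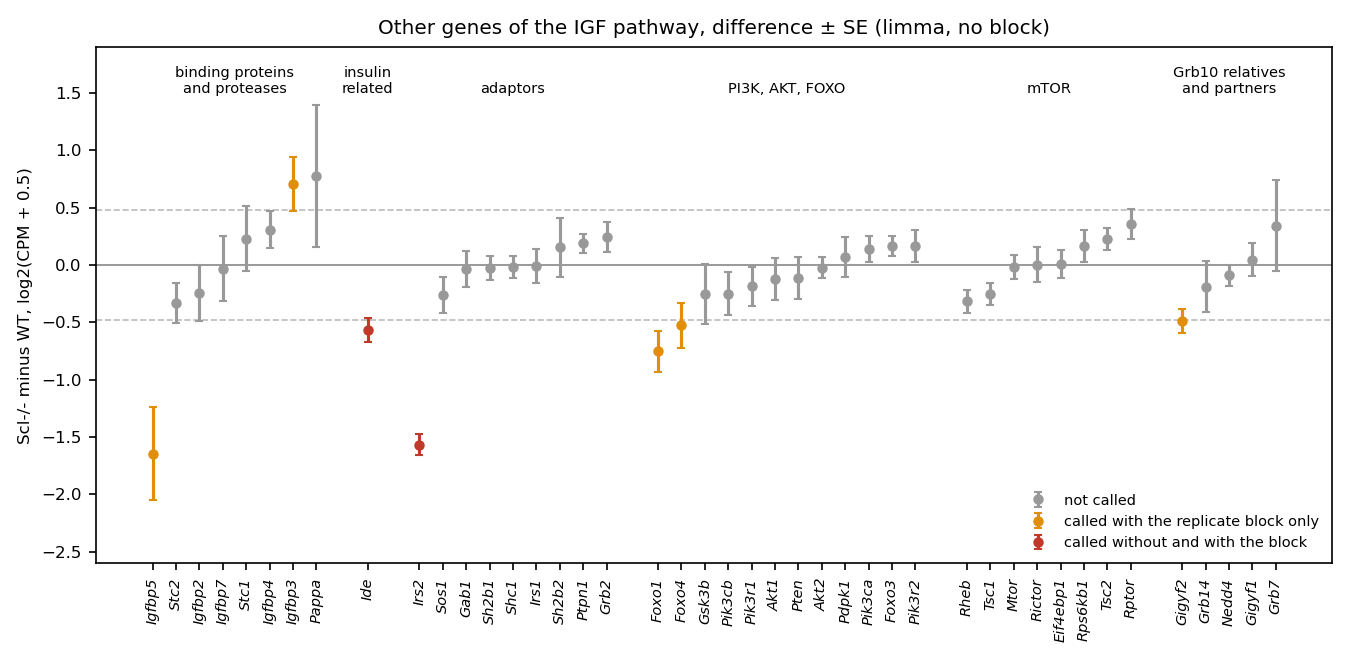
Log2 fold change with its standard error for tested genes of the pathway outside the 10 members, grouped by role; dashed lines mark the threshold of 0.48 on either side. Irs2 at -1.56 and Ide at -0.57 (red) passed in both fits, and the genes in orange only in the fit blocked on replicate number.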

How the data were processed

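RNA was sequenced from 3 WT and 3 Scl-/- libraries of FLK1+ cells, grouped by the labels. Per the labels and the study's methods, the authors aligned reads to mm9 with TopHat2 2.0.8b, kept reads of mapping quality above 15 with SAMtools 0.1.19, removed duplicates and normalized with edgeR, and deposited 1 table of CPM, read counts scaled to the library total. The counting tool, its annotation and its use of strand are not given in the sources used here. Duplicate removal lowers the values of very abundant RNAs most.

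Here the 13991 of 14005 genes that reached 0.5 CPM in 3 or more libraries were fitted with limma 3.58.1 in R 4.3.3 on log2(CPM + 0.5), with genotype alone and an intensity trend, and p-values were adjusted by Benjamini-Hochberg over all of them. A call needed an adjusted p below 0.05 and a log2 fold change beyond 0.48 in either direction. Every value was a whole multiple of its column's step, within 0.1 of a read, which gave reads per library. A separate check of low values, which takes the smallest value as 1 read, did not recover whole reads, so no count test was run, and the reads printed rest on the first estimate. In the 15 pairs of libraries, 0 genes had an equal nonzero value. The fit was checked on simulated data with 200 changed genes. Deviations from the group means correlated at 0.587, 0.756 and 0.748 for libraries of the same number and at -0.621 to -0.0996 for others, over 13991 genes, so that the numbers were taken to pair the libraries, and the fit with the replicate number as a block is given beside results it changes.

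The 10 genes, the pathway list, its roles and the markers were chosen with earlier results of these data known. The text names all 10 members, the called pathway genes with and without the block, family relatives of named genes, the called genes among the 3 nearest tested neighbours on each side of a locus, the nearest on each side of Grb10, and the 5 genes most like a member by Pearson's r. Of the pathway and likeness genes, 2 are counted but not reported here by name or in a figure. Airn, Igf2os and Mir675 are named because they overlap a member, and Egfr and Cgnl1 were named after their values were seen. Exon lengths and places are from GENCODE vM1 on mm9. The alternatives were 2 pseudocounts, 2 filters on low values, median-ratio rescaling, no intensity trend, the replicate block, chromosome centring, a fold threshold of 1 on the log2 scale and leaving out each library. Python 3.11.15, NumPy 2.4.6, SciPy 1.17.1, pandas 2.3.3 and Matplotlib 3.10.9 were used.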

Additional observations from a re-analysis of the deposited data

How the results depend on the processing

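All 10 members kept their direction under every alternative except Igf2bp1, whose log2 fold change became -0.13 with chromosome centring, and Insr, Igf2bp2 and Igf2bp3, whose values near 0 changed sign when 1 library was left out. The cause was not tested. The pseudocount moved Igf1 to -5.98 at 0.1 and -3.55 at 1, and centring moved Grb10 to -7.55. With the replicate block, which pairs libraries of the same number, 1768 genes were called in place of 330, 5 members in place of 3 and 8 genes of the pathway list in place of 2. With the block and chromosome centring these counts were 1492, 5 and 6. The block changed no other call among the members, and it kept the count of neighbours called at 1. Without the intensity trend, or at a log2 fold threshold of 1, 1 gene of the pathway list was called. When 1 library was left out, 44 to 384 genes, 2 to 4 members, 1 to 3 genes of the pathway list and 0 to 1 neighbours were called. The lowest of these, 44 genes, was without WT replicate 1, and 128, 129 and 162 genes were called without WT replicate 3, Scl-/- replicate 2 and Scl-/- replicate 3.

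With 3 libraries per group from 1 line per genotype, p-values measure the spread between differentiations of these lines. Depth limits only Igf1 among the members, whose Scl-/- values rest on 2, 3 and 8 reads.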
